A study of Mus musculus with 15 samples.

Results

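Moderately swollen knee synovium of mice with collagen-induced arthritis was compared with synovium of naive mice, across all 14310 genes with a measurable signal. The comparison rests on 6 of the 15 arrays of the series: 3 titled for moderate joint inflammation in collagen-induced arthritis (CIA) and 3 titled naive, whose source is named as healthy knee synovium. In CIA, mice develop joint inflammation after immunization against type II collagen. Per the labels, 100 µg of collagen was given with FCA on day 0, and a further 100 µg intraperitoneally on day 21. The other 9 arrays are CIA joints with no, mild or severe swelling, 3 each, and served to set the moderate grade in the range. The naive samples carry the same immunization text, taken here as common wording for all samples; if naive mice were in fact immunized, every difference from naive would have another meaning. Strain, sex, age and the day of sampling are not given, nor is whether replicates are separate mice, so p-values cover only the spread among these arrays, and that spread may be technical.

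Synovium lines the joint cavity. Its lining fibroblasts make lubricin and hyaluronan, and the sublining below holds fibroblasts, vessels, macrophages and fat. In arthritis the tissue takes up neutrophils and monocytes, its fibroblasts multiply and secrete proteases, and RANKL drives the formation of osteoclasts that erode bone.

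Array medians were 38.7, 45.1 and 44.2 intensity units in moderate joints, against 41.8, 39.2 and 38.6 in naive joints (precision is limited by how few arrays there are). On the first principal component of all 15 arrays, with 70.2% of the variance, the moderate arrays lay at 44.9 to 55.9 and the naive arrays at -66.3 to -62.1. The 3′ to 5′ ratio of actin signal, a measure of RNA integrity, was 1.19 to 1.27 in moderate and 0.890 to 1.03 in naive joints, without overlap; the same ratio for Gapdh was 0.807 to 0.848 in moderate and 0.826 to 0.888 in naive joints, with overlap. Their part in the differences was not tested. The tissue label was checked against markers. Prg4, the lubricin gene of lining cells, had signals of 5345, 8049 and 6948 in moderate joints, against 2856, 2148 and 2104 in naive joints. Skeletal muscle transcripts were among the brightest on every one of these arrays. Mylpf, a fast-fibre myosin light chain gene, had 5731, 9398 and 7638 in moderate joints and 13409, 11248 and 12549 in naive joints, so the samples labelled synovium also held muscle RNA.

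Of the 14310 genes tested, 7800 (54.5%) differed between moderate and naive joints at a Benjamini-Hochberg adjusted p under 0.05 in limma. Of these, 4402 (30.8%) were higher and 3398 (23.7%) lower in moderate joints. Large changes were mostly increases: 572 called genes (4%) had a log2 difference above 2 and 195 (1.36%) one below -2. Taking every probe set by itself, 15528 of 31522 were called (49.3%), 8423 higher (26.7%) and 7105 lower (22.5%). The signals of the 2 groups did not overlap for 9099 genes (63.6%). The median log2 difference over all genes was 0.06. Every log2 difference here is moderate minus naive on the log2(signal + 16) scale, which understates the change of dim genes, with limma's standard error (SE). Scaling on the hybridization controls in place of the authors' scaling shifted that median to 0.47 and left 5670 genes called, 4920 higher and 750 lower. Higher genes then made up 86.8% of the calls, against 56.4% as deposited, so the decreases described here are relative to each array's average signal. In the plot of all genes, the brightest genes at the right edge mostly lay below 0; the highest signal of any probe set was 6739, 10620 and 9298 on the moderate arrays and 13409, 11307 and 12572 on the naive arrays.

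**Figure D1:**
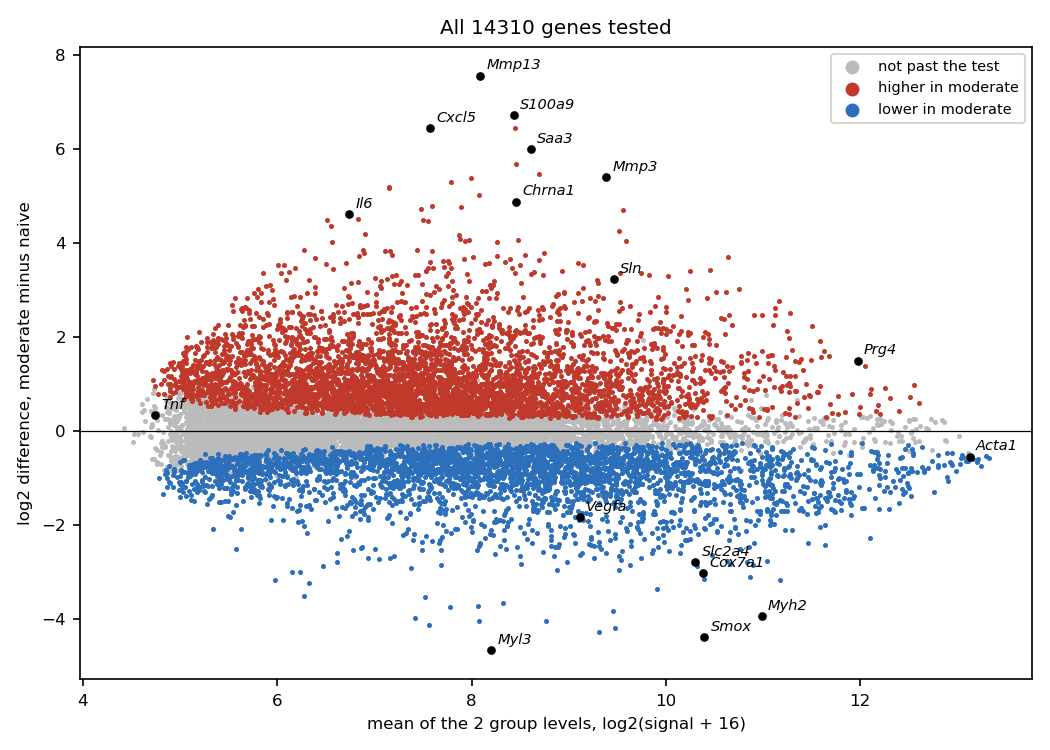
Each point is 1 of the 14310 genes tested: the horizontal axis is the mean of both group levels in log2(signal + 16), the vertical axis the log2 difference, moderate minus naive. Red genes (4402) were called higher, blue genes (3398) lower and grey genes were not past the test; black points are named examples, from Mmp13 at 7.56 to Myl3 at -4.66.

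The highest differences were in genes of matrix breakdown, alarmins and neutrophil recruitment. Mmp13, a collagenase that cleaves cartilage collagen, had signals of 2914, 4768 and 3572 in moderate joints, against 0.8, 7.1 and 3.1 in naive joints, a log2 difference of 7.56 ± 0.73 (SE, limma adjusted p = 6.9e-07). S100a9 had 3361, 4638 and 2726 in moderate and 15.2, 15.9 and 20.8 in naive joints (6.72 ± 0.48). Its partner S100a8, with which it forms the alarmin calprotectin of myeloid cells, had 3141, 3643 and 2785 in moderate and 22.4, 9.7 and 33.1 in naive joints (6.45 ± 0.54). Cxcl5, a chemokine that draws neutrophils, was the steadiest of them: 1875, 1730 and 1670 in moderate joints, against 7.1, 4.5 and 1.8 in naive joints (6.44 ± 0.21, limma adjusted p = 3.5e-11). These genes were picked for the highest differences without overlap between groups, so the gap between their moderate and naive arrays follows from that choice. The acute-phase gene Saa3 had 3053, 3950 and 2383 in moderate and 31.0, 25.2 and 42.1 in naive joints. Slpi, which encodes an inhibitor of neutrophil elastase, had 2192, 3678 and 1824 in moderate and 34.5, 36.4 and 25.4 in naive joints. Mmp3, the stromelysin that also activates other proteases, had 3476, 5656 and 3884 in moderate and 103.8, 95.5 and 60.1 in naive joints.

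Fibroblast and matrix genes made up much of the rest of the 15 highest. Cdh11, the cadherin that joins lining fibroblasts, had 1362, 1516 and 1720 in moderate joints, against 34.1, 30.5 and 28.6 in naive joints. Cthrc1, a secreted protein of activated fibroblasts, rose by 5.48 ± 0.52 on the log2 scale, the matrix genes Tnn and Mfap4 by 5.21 ± 0.59 and 5.18 ± 0.61. Mpeg1, the macrophage perforin, rose by 5.38 ± 0.33, the chitinase-like gene Chil1 by 5.29 ± 0.46 and Slfn4, an interferon-induced gene of myeloid cells, had 1154, 1103 and 693.6 in moderate and 32.9, 5.9 and 24.4 in naive joints. The remaining gene is of another tissue: Chrna1 encodes the muscle acetylcholine receptor subunit and had 1836, 1187 and 2684 in moderate joints, against 24.1, 65.0 and 55.5 in naive joints. In 9 of the 15 the naive mean lay under the 40th percentile of the naive arrays (25.8 to 28.3), so the pseudocount sets the size of their differences. With a pseudocount of 1 the difference of Mmp13 was 9.88 and with 64 it was 5.79.

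**Figure D2:**
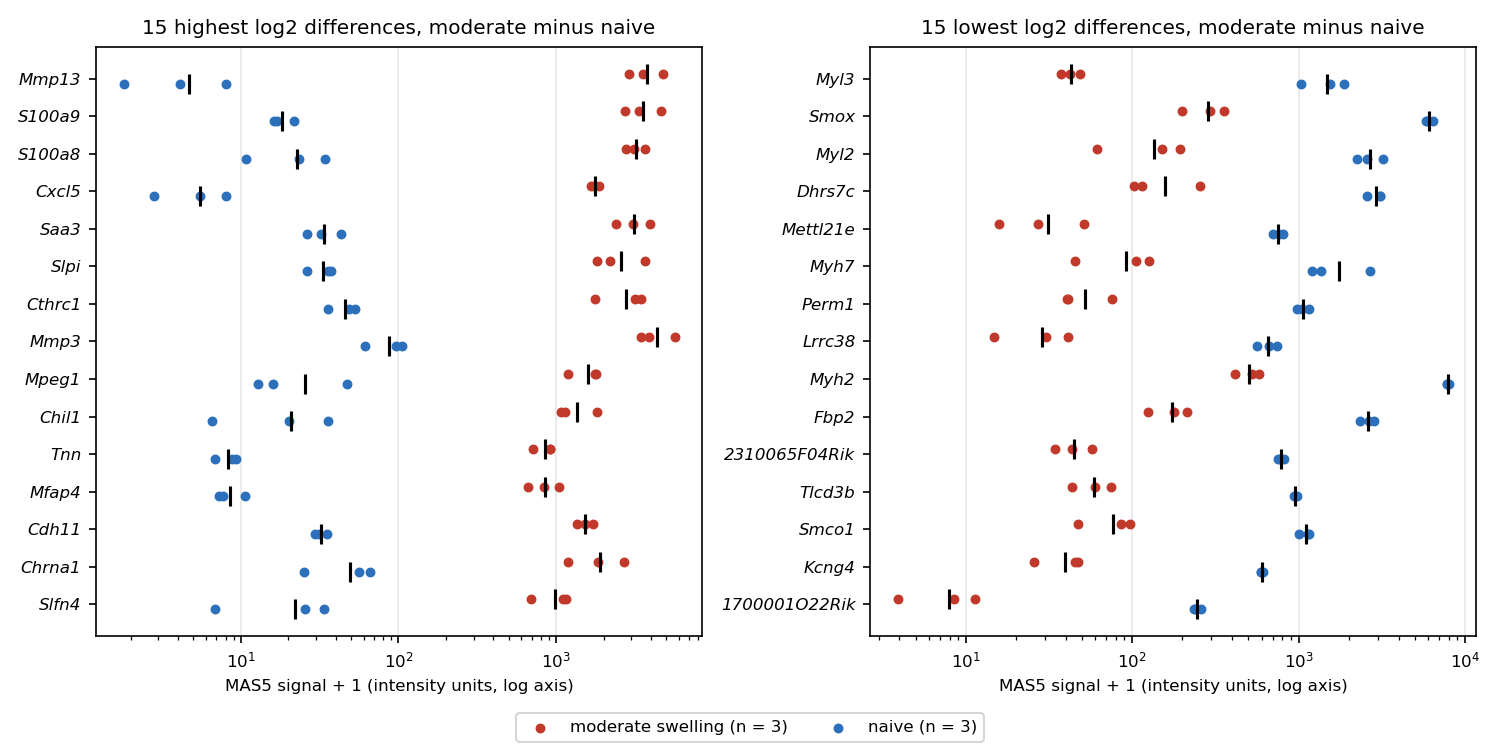
Signals on the 3 moderate (red) and 3 naive (blue) arrays, on a log axis as MAS5 signal + 1, for the 15 highest (left) and 15 lowest (right) log2 differences among called genes without overlap between groups; black ticks are group means. Moderate points lie right of all naive points in the left panel (Mmp13 at 2914 to 4768 in moderate and 0.8 to 7.1 in naive joints) and left of them in the right panel (Smox at 199.8 to 356.2 in moderate and 5823 to 6395 in naive joints).

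The promoters of these genes were searched for the AP-1 motif, since Mmp13 and Mmp3 are textbook targets of the Fos and Jun factors that bind it. In the 250 bases before the RefSeq start (assembly GRCm38.p6), TGACTCA on either strand stood in 4 of the 11 promoters found for the 15 highest genes (36.4%), in 1 of 18 promoters of 13 of the 15 lowest genes (5.56%, Fbp2) and in 1466 of 32851 promoters in all (4.46%). The STAT motif TTCNNNGAA, whose letters are their own reverse complement, stood in 0 of the 11, in 1 of the 18 (Smco1) and in 7.02% of all. The motif was chosen with Mmp13 and Mmp3 in view, and these are 2 of the 4 genes with a match, so the share in the highest genes is a description of these promoters and no comparison is read from it. A match is a run of letters, not a measured site. The 4 promoters that hold the AP-1 letters are printed 5′ to 3′ on the gene's strand, with the match in capitals; the last base adjoins the start.
Mmp13 (chr9:7272264-7272513, plus strand): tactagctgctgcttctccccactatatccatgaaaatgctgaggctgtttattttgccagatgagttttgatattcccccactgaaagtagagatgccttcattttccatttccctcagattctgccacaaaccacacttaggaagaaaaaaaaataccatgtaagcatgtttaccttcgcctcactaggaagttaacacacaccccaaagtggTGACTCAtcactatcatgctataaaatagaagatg
Mmp3 (chr9:7445572-7445821, plus strand): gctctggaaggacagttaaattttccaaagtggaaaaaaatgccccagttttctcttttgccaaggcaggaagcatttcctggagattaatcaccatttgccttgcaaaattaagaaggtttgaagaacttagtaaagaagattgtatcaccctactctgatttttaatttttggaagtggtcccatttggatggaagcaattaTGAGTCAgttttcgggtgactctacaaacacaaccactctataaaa
Slfn4 (chr11:83174936-83175185, plus strand): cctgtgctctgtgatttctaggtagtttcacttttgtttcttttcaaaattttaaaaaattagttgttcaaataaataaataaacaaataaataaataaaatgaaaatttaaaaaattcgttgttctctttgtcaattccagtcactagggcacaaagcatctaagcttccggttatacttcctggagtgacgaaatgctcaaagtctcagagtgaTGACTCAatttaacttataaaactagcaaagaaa
Chrna1 (chr2:73580339-73580588, minus strand): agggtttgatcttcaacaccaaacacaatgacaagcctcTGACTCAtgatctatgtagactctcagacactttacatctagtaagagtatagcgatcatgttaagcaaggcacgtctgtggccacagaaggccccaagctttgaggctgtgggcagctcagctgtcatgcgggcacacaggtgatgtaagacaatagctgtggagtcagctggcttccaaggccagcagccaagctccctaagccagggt
The match lies 35 to 29 bases before the start in Mmp13, 34 to 28 in Slfn4 and 46 to 40 in Mmp3, where it reads TGAGTCA, and 211 to 205 in Chrna1. Of 14 immediate early genes, 11 were higher, 1 lower and 2 not past the test; whether their products bear on the promoters shown was not tested. Fosl2, of the Fos family, had 1130, 1218 and 1067 in moderate joints, against 151.9, 167.7 and 215.1 in naive joints (2.58 ± 0.17). Junb (2.90 ± 0.20) and the stress gene Ier3 (1.98 ± 0.16) were also higher, Jun did not pass (0.20), and Nr4a1, which encodes a nuclear receptor induced by stimulation, fell by 1.66 ± 0.22.

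Gene lists for joint tissue, immune cells and neighbouring tissues are described by counts of called members, to be read against 30.8% higher and 23.7% lower over all genes. A gene passed the signal filter with 3 arrays of any group. A gene dim in naive joints could thus enter through the moderate arrays alone, and counts of higher genes in all lists carry this limit. Of 14 genes of neutrophil-attracting chemokines and neutrophil receptors, 11 were higher and 3 not past the test, with a median log2 difference of 2.45. Among the higher ones, Clec4e, Cxcl5, Cxcl2, Cxcr2, Cxcl3, Mmp8, Clec4d, Csf3r and Trem1 had naive means of 3.1 to 23.2. All of these lay under the 40th percentile of every naive array (25.8 to 28.3). Csf3r, the G-CSF receptor of neutrophils, had 930.3, 956.6 and 611.2 in moderate joints, against 10.7, 39.9 and 17.1 in naive joints. The lectin receptor gene Clec4d rose by 3.84 ± 0.24. Of 12 calprotectin, lipocalin and acute-phase genes, 8 were higher and 4 not past the test. The neutrophil granule genes varied most: Ngp had 70.4, 773.4 and 177 in moderate joints, against 74.5, 74.8 and 48.7 in naive joints, and did not pass (1.54 ± 0.69, limma adjusted p = 0.068). Camp, the cathelicidin of granules, passed at 2.16 ± 0.71 with a moderate mean of 140.4 ± 132 and a naive mean of 13.1 ± 10.8 (SD, n = 3 each). Ltf, the lactoferrin gene, did not (0.73). Moderate replicate 2 had the highest signal for Ngp, Camp and Ltf alike.

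Chemokines for monocytes and lymphocytes were higher too, in 11 of 13 CC chemokine and receptor genes and 7 of 9 genes of CXC chemokines that act on lymphocytes, with none lower in either list. Ccl12 had 204.0, 170.9 and 136.6 in moderate joints, against 2.0, 1.8 and 1.8 in naive joints. Ccr2, the receptor that brings monocytes out of marrow and blood, had 952.7, 714.3 and 524.2 in moderate and 50.6, 57.9 and 39.8 in naive joints. Cxcl12, a chemokine of stromal cells, was bright in all: 3921, 6103 and 4490 in moderate and 970.9, 1045 and 942.4 in naive joints. Its receptor gene Cxcr4 rose by 2.89 ± 0.22. Ccl11, which draws eosinophils, was at 93.7 ± 10.2 in moderate and 136.5 ± 18.5 in naive joints (SD, n = 3 each) and did not pass the test.

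Of 13 proinflammatory cytokine genes tested (19 measured), 9 were higher, 1 lower and 3 not past the test. Il6 had 743.2, 438.6 and 370.0 in moderate joints, against 1.8, 14.1 and 0.7 in naive joints (4.62 ± 0.34). Il1b had 785.0, 866.4 and 515.8 in moderate and 36.7, 36.0 and 30.8 in naive joints (3.84 ± 0.25). Ltb, which encodes lymphotoxin beta, rose by 3.55 ± 0.46 and the alarmin gene Il33 by 3.20 ± 0.27. Tnf and Il17a, both targets of arthritis drugs, were dim and did not pass. Tnf had 29.2, 10.1 and 5.7 in moderate joints, against 5.1, 8.6 and 8.1 in naive joints (0.34 ± 0.46), with the highest value in moderate replicate 1. Il17a had 30.8, 45.3 and 40.6 in moderate and 28.1, 34.3 and 44.9 in naive joints (0.09 ± 0.18). Il12a, which encodes a subunit of interleukin 12, fell by 1.68 ± 0.24. Genes that restrain these signals were called in both directions: 8 of 15 were higher and 2 lower (median 0.87). Socs3, the feedback inhibitor of gp130 signalling, had 1954, 2132 and 1540 in moderate joints, against 134.5, 162.1 and 128.2 in naive joints, and Arg1, the arginase of alternatively activated macrophages, 754.7, 320.5 and 236.4 in moderate and 2.3, 6.5 and 1.8 in naive joints. Cish, induced by STAT5, fell by 1.40 and the glucocorticoid-induced Tsc22d3 by 0.45.

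Receptors of innate immunity were called higher almost throughout. Of 16 Toll-like receptor and inflammasome genes, 14 were higher and none lower (median 1.40), all 10 tested genes of Fc gamma receptor signalling were higher (2.21), and 11 of 13 complement genes were higher and 2 lower (1.93). Tyrobp, an adaptor of myeloid receptors, had 1653, 1880 and 1257 in moderate joints, against 102.5, 99.3 and 92.4 in naive joints. Fcer1g, the Fc receptor gamma chain, had 1044, 1002 and 617.2 in moderate and 121.0, 54.7 and 76.4 in naive joints. Tlr2 (2.59 ± 0.26), its partner Cd14 (2.58 ± 0.29) and their adaptor Myd88 (1.99 ± 0.17) were higher, whereas Tlr8 and Tlr9 did not pass (0.17 and -0.07). Among complement genes, C3ar1, a receptor of anaphylatoxin C3a, rose by 2.92 ± 0.27 and factor B (Cfb) by 2.29 ± 0.29. The lower ones, Cd55 (-1.03) and Cd59a (-0.88), encode surface proteins that protect cells from complement. Of 16 NADPH oxidase and antioxidant genes, 8 were higher and 5 lower. The higher ones included the phagocyte oxidase genes Ncf4 (2.76 ± 0.25), Cyba (2.92 ± 0.27) and Ncf1 (2.66 ± 0.25), and the lower ones were Gclm, Sod1, Nqo1, Gclc and Sod2 (-1.05 to -0.52). With the arrays scaled on hybridization controls, none of the 5 was called lower.

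Of 17 macrophage markers, 12 were higher, none lower and 5 not past the test. The 5 were Folr2 (0.53), Cd163 (0.10), Vsig4 (-0.08), Timd4 (-0.14) and Lyve1 (-0.67), which mark resident macrophages in many mouse tissues. The 12 higher genes included Trem2 (3.22), Cx3cr1 (2.35) and Mrc1 (0.99), and a split of resident from recruited macrophages was not tested. Ms4a7 had 983.8, 1019 and 869.5 in moderate joints, against 48.6, 35.3 and 39.7 in naive joints, while Vsig4 was at 80.3 ± 8.62 in moderate and 85.4 ± 8.20 in naive joints (SD, n = 3 each). The summed signal of the macrophage markers was 7952 to 10239 in moderate and 2450 to 2684 in naive joints. In whole tissue, more cells of a type and more RNA per cell cannot be told apart, here and in all that follows. Genes of antigen presentation by MHC class II were higher in 10 of 11 cases (median 0.85), with H2-Aa at 2067, 2367 and 1522 in moderate and 373.5, 272.8 and 247.9 in naive joints. Interferon response genes were higher in 15 of 16 (median 1.20): Oas1a, an antiviral enzyme, had 303.5, 314.5 and 231.7 in moderate and 125.9, 94.2 and 108.6 in naive joints. The lysosomal protease genes Ctss (3.40 ± 0.31) and Lgmn (3.33 ± 0.27) were among 9 of 11 cathepsin genes that rose.

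Lymphocyte and mast cell markers gave no such picture. Of 10 T cell markers, 3 were higher and 2 lower, with a median of -0.14 that was 0.18 when arrays were scaled on hybridization controls. Cd3e, a chain of the T cell receptor complex, had 58.5, 43.5 and 8.6 in moderate joints, against 8.6, 12.2 and 9.8 in naive joints, and did not pass (0.87 ± 0.38). Moderate replicates 1 and 2 lay above the naive arrays, and without moderate replicate 3 the gene was called higher (1.35, limma adjusted p = 0.0044). Cd5 rose by 1.31 ± 0.28, Cd4 by 0.96 ± 0.33 and Cd3g by 0.82 ± 0.29. Cd27 fell by 1.18 ± 0.32 and Zap70 was also lower (-0.68 ± 0.23). Without naive replicate 1, 1 T cell marker was called higher instead of 3. Cd3d, Cd247 and Foxp3 lay below the signal filter and others were dim, such as Cd4 with means of 28.6 in moderate and 5.8 in naive joints. A missed call says little about such dim genes. Of 9 B cell and plasma cell markers 4 were higher and 1 lower; without moderate replicate 2, 2 were higher. The defining B cell genes Ms4a1, Cd79a and Pax5 did not pass (-0.11, -0.01 and -0.13), whereas Sdc1, a syndecan that plasma cells share with epithelial and stromal cells, had 1137, 1286 and 920.8 in moderate and 78.9, 74.3 and 77.5 in naive joints. The other higher members were the plasma cell genes Jchain (1.10 ± 0.38) and Mzb1 (0.52 ± 0.19), and Xbp1 (1.13 ± 0.17). Jchain averaged 111.4 ± 75.5 in moderate and 37.0 ± 5.83 in naive joints (SD, n = 3 each). Ighm fell by 2.70 ± 0.31 by its brightest probe set, but another probe set of the gene was called in the opposite direction, and the mean of its probe sets did not pass (-0.39). Of 7 mast cell markers, Hdc (2.68 ± 0.26) and Kit (2.23 ± 0.21), which other cells share, rose and none fell; the mast cell protease genes Cpa3, Cma1, Mcpt4, Tpsab1 and Tpsb2 did not pass. Without moderate replicate 1, Tpsb2 was called lower (-1.26).

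Genes of leukocyte adhesion, on both leukocytes and vessels, were mostly higher. Of 13 leukocyte adhesion genes, 9 were higher and 1 lower, and of 16 endothelial and angiogenesis genes, 7 were higher and 2 lower (medians 2.02 and 0.43). Selp, the P-selectin on which leukocytes roll, had 357.2, 645.7 and 495.2 in moderate joints, against 7.8, 15.0 and 12.3 in naive joints. Vcam1, the ligand that arrests monocytes and lymphocytes, had 812.9, 1002 and 932.4 in moderate and 58.0, 62.0 and 47.3 in naive joints. Sele (2.02 ± 0.30) and Icam1 (1.84 ± 0.18), other adhesion genes of vessels, were also higher, Icam2 did not pass (0.39) and Jam2 was lower (-0.51). Itgb2 (3.01), Itgal (2.51) and Selplg (2.50), genes of leukocytes, were higher. In the endothelial list Plvap, of the fenestral diaphragm, rose by 2.01. The pan-endothelial gene Pecam1 rose by 0.91 ± 0.14, and the VEGF receptor gene Kdr was at -0.05. Vegfa itself, the main growth factor of vessels, fell to 332.6, 251.2 and 250.1 in moderate joints, against 925.3, 1179 and 978.1 in naive joints (-1.83 ± 0.18). Skeletal muscle also makes Vegfa, and slow-fibre muscle genes were lower in the same arrays, as described later; their part in this difference was not tested.

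Proteases of the matrix rose together with part of their inhibitors. Of 12 matrix metalloproteinase genes, 10 were higher and none lower, and all 13 tested ADAM and ADAMTS genes were higher, by smaller amounts (medians 1.87 and 1.11). Mmp14, which activates Mmp2 and Mmp13 proteins at the cell surface, had 2222, 3293 and 2760 in moderate joints, against 220.4, 293.0 and 235.1 in naive joints. Adamts4, an aggrecanase, had 394.2, 316.3 and 292.0 in moderate and 40.4, 13.7 and 41.0 in naive joints, and Adamts5, the other main aggrecanase, rose by 0.99. Of 10 protease inhibitor genes, 7 were higher and 3 lower, or 1 lower with scaling on hybridization controls. Timp1 had 3725, 4754 and 3160 in moderate and 133.7, 141.2 and 117.8 in naive joints (4.71 ± 0.42). Its relatives moved differently: Timp2 rose by 1.03, Timp3 fell by 0.74 and Timp4 fell by 2.71 ± 0.26, to 35.7 ± 5.08 in moderate joints, against 324.3 ± 58.7 in naive joints (SD, n = 3 each).

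Genes of bone resorption were higher in part. In the list of the RANKL axis and osteoclasts, 8 of 14 genes were higher and 2 lower. Tnfsf11, the RANKL gene, had 223.5, 183.6 and 199.9 in moderate joints, against 2.5, 5.2 and 1.1 in naive joints (3.53 ± 0.29). Some osteoclast effector genes were also higher, and which cells they came from was not tested. Ctsk, the collagen-cleaving cathepsin K, had 2782, 3798 and 3000 in moderate and 160.0, 157.1 and 133.7 in naive joints, and Acp5, tartrate-resistant acid phosphatase, rose by 3.36 ± 0.35. Atp6v0d2, a subunit of the osteoclast proton pump, averaged 174.8 ± 21.9 in moderate and 18.0 ± 4.97 in naive joints (SD, n = 3 each). Tnfrsf11a, the RANK receptor, did not pass (0.24), nor did Ocstamp (0.90), Oscar (0.17) and Clcn7 (0.15). Nfatc1 (-0.49) and Car2 (-0.74) were lower, although both are osteoclast genes. Tnfrsf11b, the gene of the decoy receptor osteoprotegerin, lay below the signal filter and was not tested. Its signals were 28.4, 25.7 and 27.0 in moderate and 0.1, 2.2 and 1.9 in naive joints. Of 3 osteoblast genes tested, Alpl (-0.74 ± 0.26) and Sp7 (-0.65 ± 0.24) were lower and Ibsp did not pass (0.81 ± 0.41). The call of Alpl was lost when any 1 of these arrays other than moderate replicate 2 was left out (-0.76 to -0.59), that of Sp7 without moderate replicate 1 (-0.37) or naive replicate 1 or 3 (-0.46 and -0.67). Ibsp was called higher without moderate replicate 1 (1.27), with the mean of its probe sets (2.23) and with scaling on hybridization controls (1.15), which ended the calls of Alpl (-0.31) and Sp7 (-0.28). Of 16 cartilage genes measured, 6 lay below the signal filter, among them Col9a2, Col10a1 and Matn1. Cartilage genes were higher in 8 of 10 tested cases, none lower. Among the higher ones, Col11a2, Sox9, Matn3 and Col9a1 had naive means (16.7, 20.3, 23.7 and 25.4) under the 40th percentile of every naive array. A gene could pass the filter through the moderate arrays themselves or through arrays of other groups. Acan, the aggrecan gene, had 253.7, 452.4 and 423.6 in moderate and 24.2, 25.3 and 38.0 in naive joints, and Col2a1, the gene of the immunizing collagen, 129.7, 268.0 and 295.1 in moderate and 12.1, 20.2 and 49.1 in naive joints. Moderate replicate 1 was the lowest of the moderate arrays for both.

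Lining fibroblast, collagen and matricellular genes were called mostly higher, and sublining fibroblast genes less often. Of 12 lining fibroblast genes, 8 were higher and 2 lower; Pdpn, the lining marker podoplanin, had 1642, 2120 and 1480 in moderate joints, against 225.7, 234.3 and 220.3 in naive joints, and the hyaluronan synthase gene Has1 rose by 3.24 ± 0.41. The lower genes were Cd55 and Clic5, both markers of lining cells; Clic5, which muscle also expresses, was at 210.3 ± 14.7 in moderate and 1068 ± 63.5 in naive joints (SD, n = 3 each). Of 12 sublining genes, 5 were higher and 7 not past the test. Pdgfra had 1902, 1793 and 1585 in moderate and 308.1, 281.4 and 270.6 in naive joints, whereas Thy1 (0.49), Col1a2 (0.27) and Col3a1 (0.24) did not pass. The count of higher sublining genes was 8 with quantile normalization, array weights or only these 6 arrays, and 11 with scaling on hybridization controls. Among 21 genes of other collagens and their cross-linking enzymes, 16 were higher and none lower: Lox, which cross-links collagen, had 4520, 5161 and 4093 in moderate and 423.5, 409.5 and 401.7 in naive joints, and Plod2, a collagen lysyl hydroxylase, 1353, 1392 and 1341 in moderate and 99.0, 81.7 and 78.4 in naive joints. The major fibrillar chain Col1a1 rose by 1.52 ± 0.30. Of 16 matricellular and fibroblast activation genes, 13 were higher and 1 lower, with the highest median of the lists (2.48). Postn, periostin, had 4651, 6258 and 6220 in moderate and 333.9, 546.3 and 403.5 in naive joints. The contractile genes of myofibroblasts did not join: Acta2 was at 0.03 and Tagln fell by 0.89.

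**Figure D3:**
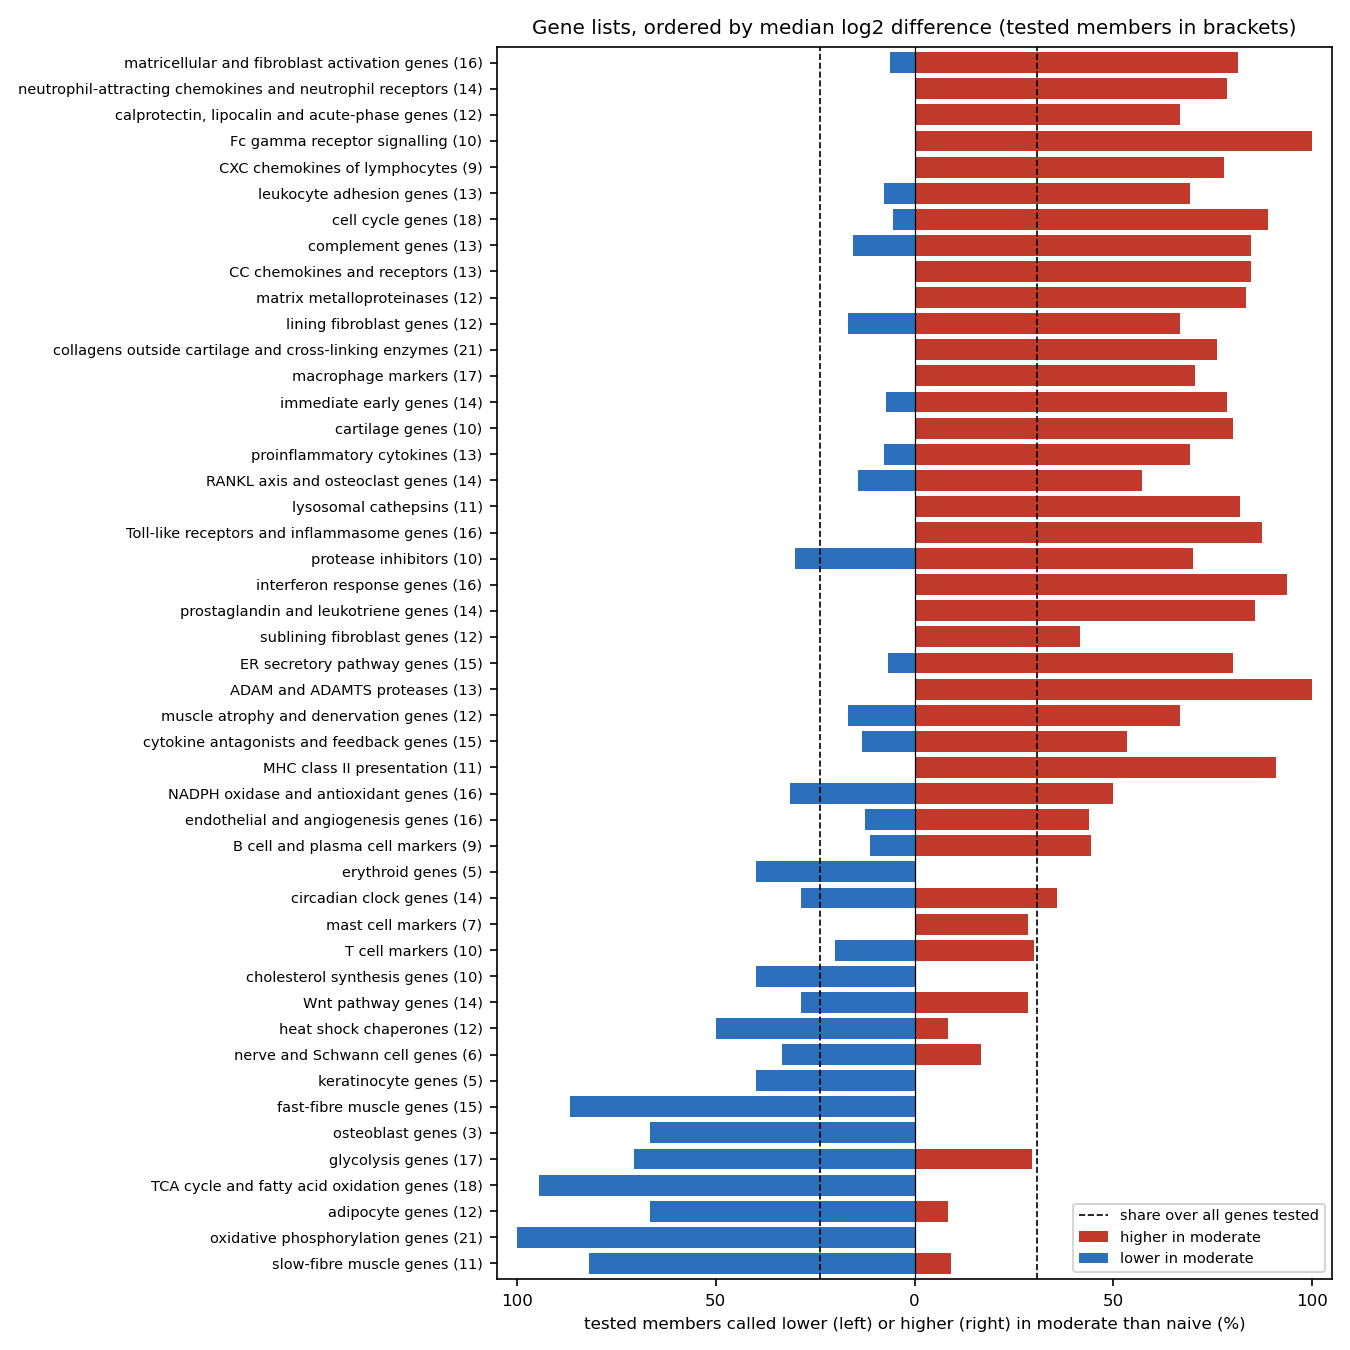
For each of 47 gene lists, the bar to the right is the percentage of tested members called higher in moderate than naive joints and the bar to the left the percentage called lower; dashed lines mark the shares over all genes, 30.8% higher and 23.7% lower. Lists run from the highest median log2 difference (matricellular genes, 2.48) to the lowest (slow-fibre muscle genes, -1.98), with numbers tested in brackets.

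Genes of growth, secretion and lipid mediators were mostly higher in the same joints. Cell cycle genes were higher in 16 of 18 cases and lower in 1 (Aurka, -0.75). Rrm2, a subunit of ribonucleotide reductase, had 559.4, 472.5 and 342.6 in moderate joints, against 27.2, 30.4 and 34.6 in naive joints, and Mki67, the proliferation marker Ki-67, rose by 2.96. Of 15 genes of the secretory pathway in the endoplasmic reticulum, 12 were higher and 1 lower (Herpud1, -0.60), with a median of 1.13. Sec61b, part of the protein channel into that compartment, had 2225, 2323 and 1961 in moderate and 838.2, 929.6 and 856.1 in naive joints. The stress-response genes Ddit3 (0.01) and Atf4 (-0.30) did not pass. Prostaglandin and leukotriene genes were higher in 12 of 14 cases, or 7 without naive replicate 3. Ptgs2, the inducible cyclooxygenase, had 432.0, 258.2 and 171.0 in moderate and 5.9, 3.5 and 2.0 in naive joints, and Ptger4, a receptor of prostaglandin E2, rose by 2.84 ± 0.24. Wnt pathway genes were called both ways, 4 higher and 4 lower of 14: the receptor gene Fzd1 had 989.1, 998.1 and 943.2 in moderate and 128.8, 140.5 and 97.7 in naive joints, while the antagonist gene Frzb fell by 1.76 ± 0.22. The 4 lower calls became 2 without naive replicate 2 or 3, and 1 with scaling on hybridization controls.

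The lowest genes by log2 difference included several of skeletal muscle. Smox, spermine oxidase, had 293.2, 356.2 and 199.8 in moderate joints, against 6395, 5823 and 5907 in naive joints (-4.37 ± 0.31). Myl3, the slow-fibre myosin light chain, was lowest by log2 difference with 36.2, 47.9 and 41.4 in moderate and 1541, 1883 and 1035 in naive joints (-4.66 ± 0.67). Myl2, its regulatory partner, had 149.7, 60.4 and 192.0 in moderate and 2564, 3230 and 2239 in naive joints, and the slow myosin heavy chain gene Myh7 124.5, 44.6 and 104.3 in moderate and 1373, 2704 and 1201 in naive joints. Myh2, the heavy chain of fast oxidative fibres, had 415.6, 580.1 and 522.6 in moderate and 7997, 7847 and 7781 in naive joints. Also among the 15 lowest were Perm1, a regulator of muscle mitochondria (-4.04 ± 0.36), Fbp2, the muscle fructose bisphosphatase (-3.83 ± 0.31), Dhrs7c, an enzyme of the sarcoplasmic reticulum (-4.18 ± 0.40), and the muscle methyltransferase gene Mettl21e (-4.12 ± 0.35). Lrrc38, 2310065F04Rik, Tlcd3b, Smco1, Kcng4 and 1700001O22Rik completed them, at -3.98 to -3.52.

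Slow-fibre and fast-fibre muscle genes were listed apart. Of 11 slow-fibre genes, 9 were lower and 1 higher (median -1.98). The higher one, Tpm3, also encodes a tropomyosin of non-muscle cells, and another of its probe sets was called lower; the mean of its probe sets differed by 0.07. Of 15 fast-fibre genes, 13 were lower, and apart from Myh2 their differences lay between -0.79 and -0.40. Several of these probe sets were near the highest signal of each array (6739 to 10620 on moderate and 11307 to 13409 on naive arrays), and whether such bright signals are compressed was not tested, so the sizes of the slow-fibre and fast-fibre differences are not compared. This count depended on the setting: 4 were lower after quantile normalization, 1 with scaling on hybridization controls, 6 without moderate replicate 1, whose brightest signals were the lowest, and 8 without naive replicate 1. Acta1, skeletal actin, had 5147, 10148 and 7256 in moderate joints, against 11920, 9285 and 10603 in naive joints, with overlap (-0.54 ± 0.21, limma adjusted p = 0.042). Its call was lost under several alternatives, with -0.10 after quantile normalization and -0.30, -0.54, -0.45 and -0.54 without moderate replicates 1 and 3 and naive replicates 1 and 3. Myh4, the heavy chain of the fastest fibres, had 5251, 10241 and 7377 in moderate and 11300, 9068 and 10282 in naive joints, and did not pass (-0.47). It was called lower with the mean of its probe sets (-0.98), array weights (-0.53), aligned medians (-0.54), the 60th percentile filter (-0.47) and without moderate replicate 2 (-0.71), but was at -0.0042 after quantile normalization and 0.028 with scaling on hybridization controls, not passing in either. Summed signals were 74693 to 122695 in moderate and 138873 to 164073 in naive joints for the fast-fibre list, and 5115 to 5861 in moderate and 11024 to 18486 in naive joints for the slow-fibre list. How far the amount of muscle, or its fibre types, in each sample entered the other decreases was not tested.

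**Figure D4:**
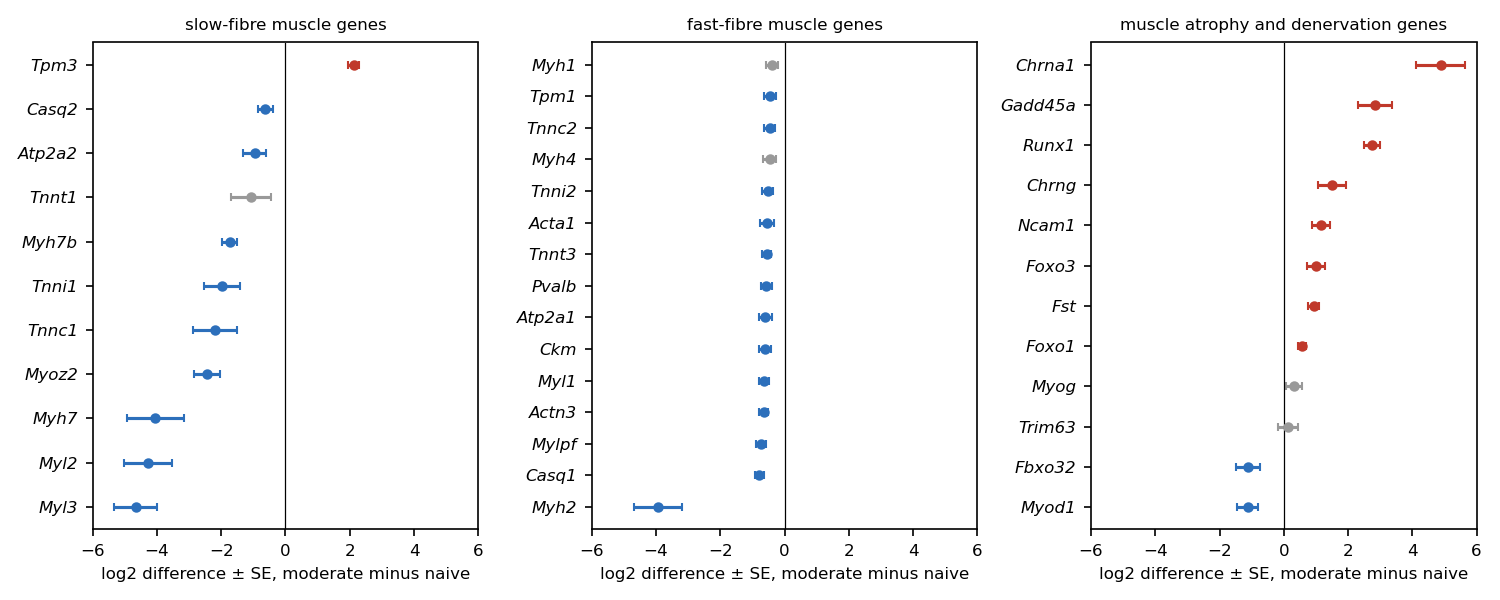
Log2 differences, moderate minus naive, with SE, for members of 3 muscle gene lists; red points were called higher, blue points lower and grey points did not pass. Slow-fibre genes reach -4.66 (Myl3), fast-fibre genes other than Myh2 stay between -0.79 and -0.40, and Chrna1 heads the denervation list at 4.89.

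Genes that muscle switches on when it loses its nerve or wastes were largely higher, 8 of 12, with 2 lower. Gadd45a had 1748, 767.4 and 2464 in moderate joints, against 196.4, 214.9 and 175.5 in naive joints, and Runx1, which is induced in denervated muscle but is also a leukocyte gene, 394.9, 351.7 and 449.3 in moderate and 51.7, 46.2 and 38.6 in naive joints. Chrng, the embryonic subunit of the acetylcholine receptor, varied with 36.5, 8 and 136.4 in moderate and 3.9, 6.6 and 3 in naive joints. Chrna1, Gadd45a and Chrng were each highest in moderate replicate 3 and lowest in moderate replicate 2. The ubiquitin ligase genes of muscle wasting did not rise: Trim63 was at 0.12 ± 0.32 and Fbxo32 fell by 1.12 ± 0.36. The muscle master regulator gene Myod1 fell by 1.12 ± 0.32 and Myog was at 0.33.

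All 21 oxidative phosphorylation genes tested were lower (median -1.52), and so were 17 of 18 genes of the TCA cycle and fatty acid oxidation (-1.32). Cox7a1, the heart and muscle isoform of a cytochrome oxidase subunit, had 374.3, 578.0 and 417.8 in moderate joints, against 3699, 3551 and 4037 in naive joints. Atp5g1, of the ATP synthase, had 1424, 1608 and 1484 in moderate and 6342, 5870 and 6506 in naive joints. Cs, citrate synthase, had 1611, 1797 and 1758 in moderate and 5189, 5154 and 5694 in naive joints. Within cytochrome oxidase, Cox5a (-0.57) and Cox4i1 (-0.84), which all tissues use, were lower, as were Cox8b (-1.63) and Cox7a1 (-3.02), genes of muscle isoforms. Cox6a2, another gene of a muscle isoform, was also called lower, and no order by isoform is read from these genes. The ketone enzyme gene Bdh1 (-3.24 ± 0.54) and Ppargc1a, the coactivator of mitochondrial genes (-2.08 ± 0.21), fell furthest among the 18. With scaling on hybridization controls, 17 of the 21 and 10 of the 18 were called lower. Genes of muscle were lower in these same arrays, as given above, and their part in these decreases was not tested.

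Of 17 glycolysis genes, 5 were higher and 12 lower. Among the lower were genes of muscle isoforms: Pfkm, muscle phosphofructokinase, had 3933, 4924 and 4460 in moderate joints, against 11374, 9849 and 11252 in naive joints, Pgam2 fell by 1.65 ± 0.18 and Eno3 by 1.05 ± 0.18. Genes of widely expressed enzymes were also among the lower, such as Tpi1, triosephosphate isomerase (-1.38), Ldhb, a lactate dehydrogenase subunit (-2.23), Ldha (-0.98), Pkm (-0.86), Pgk1 (-0.76) and Gapdh (-0.63). The 5 higher genes were Pgam1, Pfkl, Slc2a1, Hk1 and Pfkp, isoforms and a transporter found widely outside muscle. Hk1 had 530.0, 559.1 and 439.2 in moderate and 181.4, 185.0 and 186.4 in naive joints. Slc16a3, a lactate exporter of fast muscle and leukocytes, fell by 2.85 ± 0.27. With scaling on hybridization controls 5 were higher and 5 lower.

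Fat genes were lower in 8 of 12 tested cases and higher in 1 (median -1.45). Adipoq, the adiponectin gene that defines fat cells, had 229.7, 391.9 and 97.7 in moderate joints, against 1597, 750.0 and 912.8 in naive joints (-2.22 ± 0.50). Slc2a4, the insulin-regulated glucose transporter of fat and muscle, had 459.3, 414.8 and 524.2 in moderate and 3438, 3110 and 3351 in naive joints. Fabp4, shared by fat, endothelium and macrophages, was at -0.33 and did not pass. Of 5 keratinocyte genes 2 were lower and none higher, of 5 erythroid genes likewise 2 and none. Of these, Alas2, the heme synthesis enzyme of red cells (-1.06), lost its call without moderate replicate 1 or 3 or naive replicate 1 (-0.83, -0.76 and -0.88) and with scaling on hybridization controls (-0.70). Of 6 nerve genes 2 were lower, Ncmap and Mbp, and 1 higher, Pmp22 (0.76 ± 0.16). Without naive replicate 2 neither Ncmap (-0.74) nor Mbp (-0.57) passed, Mbp also not without moderate replicate 2 (-0.59), and the mean of the probe sets of Mbp was at -0.08. Heat shock chaperone genes were lower in 6 of 12 cases and higher in 1, led by Hspb6, a small chaperone abundant in muscle, at 1187, 1350 and 714.9 in moderate and 4355, 4194 and 4126 in naive joints, and Hspa1a, the inducible HSP70, at 42.4, 46.7 and 42.4 in moderate and 197.1, 148.4 and 277.7 in naive joints. With scaling on hybridization controls 2 chaperone genes were called lower, and the medians of the chaperone and nerve lists were 0.19 and 0.02 in place of -0.31 and -0.38. Of 10 genes of cholesterol synthesis 4 were lower, among them Idi1 (-0.64 ± 0.12), with a median of -0.28 that was 0.17 when arrays were scaled on hybridization controls, where none was called lower.

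Clock genes were called in both directions, 5 higher and 4 lower of 14. Per2 had 120.7, 169.4 and 160.6 in moderate joints, against 26.9, 16.9 and 32.6 in naive joints, and Dbp, an output gene of the clock, 643.1, 1175 and 1380 in moderate and 182.3, 170.7 and 213.4 in naive joints. Per1 rose by 1.65 ± 0.16. Arntl, which encodes BMAL1 and peaks in antiphase to the Per genes in mouse tissues, fell to 96.5 ± 15.8 in moderate joints, against 457.1 ± 22.9 in naive joints (SD, n = 3 each, -2.08 ± 0.20). The hour of sampling is not given in the labels, and its part in these differences was not tested. The median of the list was 0.02, or -0.12 after quantile normalization, and with scaling on hybridization controls 1 gene was called lower.

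Set against the other grades, moderate joints could not be separated from severe ones. No gene passed at an adjusted p under 0.05 in limma (0%), with 885 (6.18%) under an unadjusted p of 0.05; 1 probe set passed when every probe set was tested by itself, and 2 genes without severe replicate 2. The lowest p-values were those of Tob2 (0.64, 95% confidence interval 0.39 to 0.88), Zfhx4 (0.75, 0.42 to 1.07) and Aars2 (0.92, 0.52 to 1.33), with an adjusted p of 0.742 in limma each. A missed threshold does not show equality, but the intervals bound the difference. For 12964 genes (90.6%) the 95% interval of moderate minus severe lay within 1 log2 unit either way. Of the 767 called genes with an absolute difference from naive over 2, 637 lay within 1 and 765 within 2. For Mmp13 the interval was -1.27 to 1.82 and for Cxcl5 -0.40 to 0.49.

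Against mild swelling, 943 genes (6.59%) were called, 459 higher (3.21%) and 484 lower (3.38%) in moderate joints. The highest were Mmp13, with a signal of 3751 ± 940 in moderate and 489.0 ± 593 in mild joints (SD, n = 3 each, log2 difference 3.62 ± 0.73), and Sln, the gene of sarcolipin, a muscle calcium pump inhibitor, with 2180 ± 694 in moderate and 171.6 ± 71.0 in mild joints (3.59 ± 0.59). Mfap4, Matn4 and Ecrg4 followed (2.72, 2.38 and 2.37). The lowest were Tlcd3b (-2.51), Dhrs7c (-2.45), Mlf1 (-2.32), Smox (-2.27) and Fbp2 (-2.25), all but Mlf1 also among the 15 lowest against naive. By list, 14 of 21 oxidative phosphorylation genes and 8 of 18 TCA cycle and fatty acid oxidation genes were lower than in mild joints, and 7 of 14 RANKL and osteoclast genes and 4 of 12 metalloproteinase genes higher. Tnfsf11 had 202.3 ± 20.1 in moderate and 89.5 ± 62.3 in mild joints. None of 14 neutrophil chemokine and receptor genes, 16 Toll-like receptor and inflammasome genes or 17 macrophage markers was called between these grades. Il6 was at 517.3 ± 199 in moderate and 838.1 ± 205 in mild joints and did not pass (-0.72 ± 0.34).

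These counts against mild rest on few arrays. On the first component mild replicate 2 stood at -7.34, and the other mild arrays at 18.5 and 35.7. Without it 196 genes were called, with 2 of 21 oxidative phosphorylation genes, 0 of 18 TCA cycle genes, 3 of 14 RANKL and osteoclast genes and 0 of 12 metalloproteinase genes. The call was 394 without mild replicate 1, 2009 without mild replicate 3, and 597, 234 and 401 without moderate replicates 1, 2 and 3. It was 28 with only the 6 arrays of both grades, 230 with scaling on hybridization controls and 4561 with array weights.

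Against CIA joints without swelling, 7617 genes (53.2%) were called, 4469 higher (31.2%) and 3148 lower (22%) in moderate joints. Mmp13 was again highest, with 3751 ± 940 in moderate joints and 60.4 ± 83.9 without swelling (SD, n = 3 each, 6.17 ± 0.73). Mfap4 (5.34), C1qtnf3 (5.05), Chil1 (4.81) and Crabp2 (4.78), the gene of a retinoic acid carrier, came next. The lowest were Dhrs7c (-4.03), Tlcd3b (-3.72), Mettl21e (-3.59), Fbp2 (-3.55) and Smox (-3.47). All 21 oxidative phosphorylation genes, 17 of 18 TCA cycle and fatty acid oxidation genes and all 15 fast-fibre genes were lower than without swelling, but of the 11 slow-fibre genes 4. With scaling on hybridization controls 6282 genes were called against no swelling, 5768 higher and 514 lower. The median log2 difference over all genes was then 0.60 in place of 0.09. These decreases are therefore relative to each array's average signal, and the list counts against no swelling were not computed with that scaling. This comparison shares the moderate arrays with that against naive. Over the grades from naive through none, mild and moderate to severe, Smox had mean signals of 6042 ± 309, 3248 ± 472, 1542 ± 889, 283.1 ± 78.7 and 412.7 ± 134. Il6 ran 5.53 ± 7.44, 138.0 ± 68.7, 838.1 ± 205, 517.3 ± 199 and 434.9 ± 158. Sln was low up to mild swelling, at 211.4 ± 35.9, 146.9 ± 125 and 171.6 ± 71.0, and then at 2180 ± 694 and 1366 ± 1002.

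**Figure D5:**
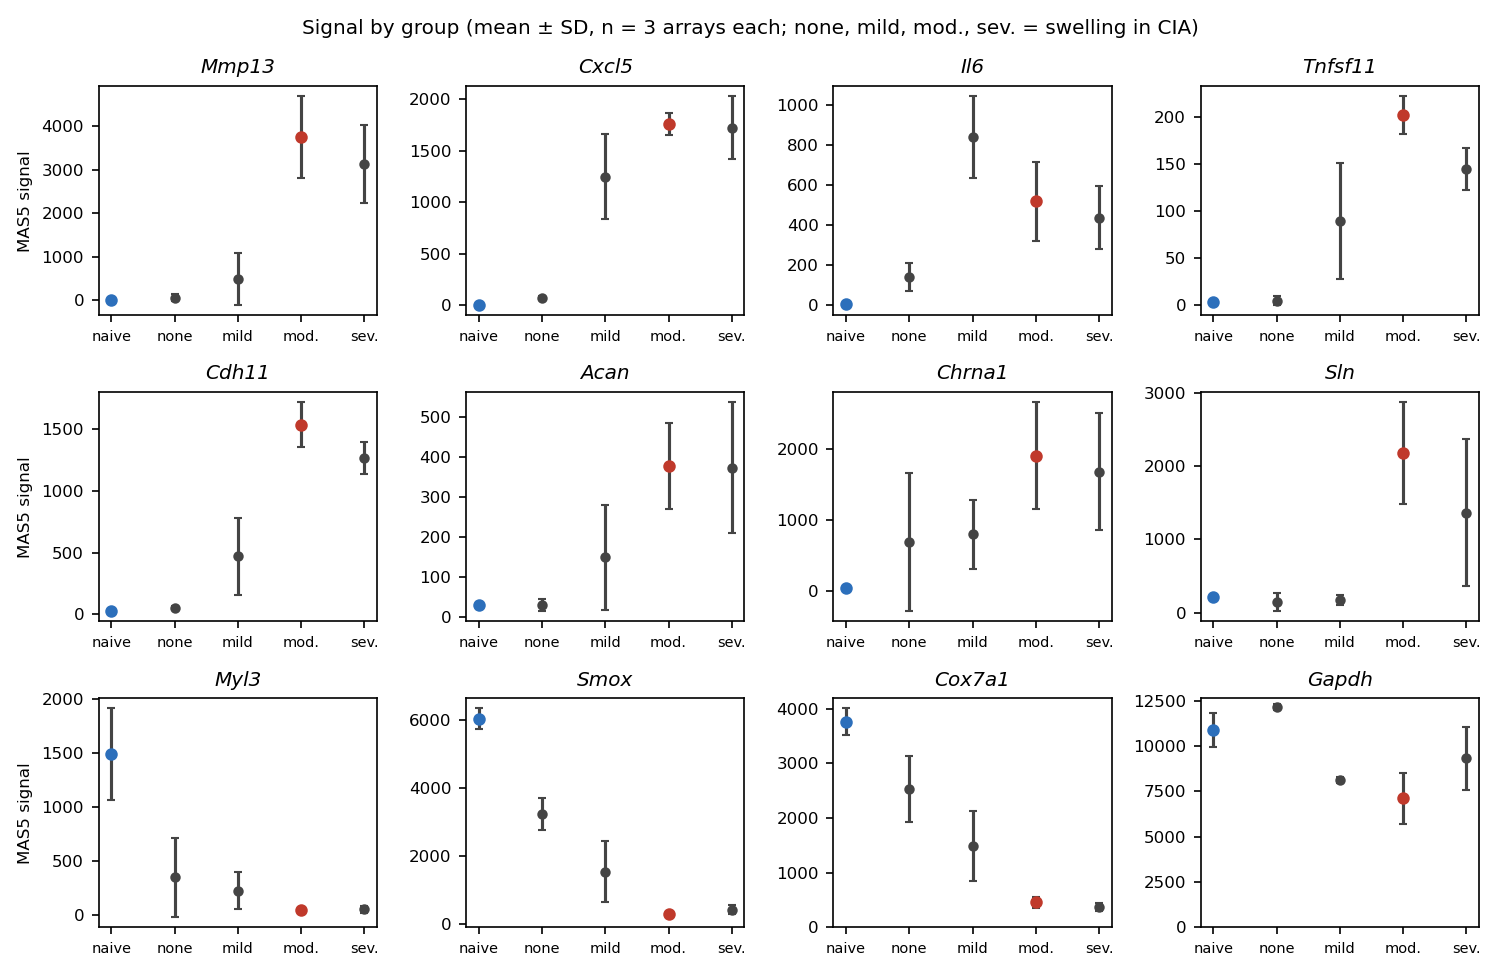
Mean signal ± SD (3 arrays a group) of 12 genes over naive joints (blue) and CIA joints with no, mild, moderate (red) and severe swelling, on linear axes that start at or below 0. Mmp13, Cdh11 and Sln stand high in moderate and severe joints (Mmp13 3751 and 3135), Il6 is highest with mild swelling (838.1), and Smox and Cox7a1 are lowest in moderate or severe joints.

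The 3 moderate arrays correlated with each other at r = 0.973 to 0.981 over genes, and the naive arrays at 0.980 to 0.982; the median SD on the log2 scale was 0.19 and 0.14. Some genes differed widely among the moderate arrays and were chosen here for that spread. Pi16, a marker of vessel-associated fibroblasts, had 1830, 2735 and 318.8 in moderate joints, against 56.2, 695.7 and 574.7 in naive joints. Tnxb, tenascin X of loose connective tissue, had 267.9, 444.3 and 39.3 in moderate and 68, 840 and 802.9 in naive joints. Both genes were lowest in moderate replicate 3 and in naive replicate 1. The same held for Prrc2a, Sympk, Pigt, Max and Hebp1, also among the most variable genes, so the pattern was not confined to genes of connective tissue. Prrc2a had 1055, 1043 and 176.3 in moderate and 250.2, 1092 and 1182 in naive joints. E2f5, a repressor of the cell cycle, had 71.7, 427.9 and 27.6 in moderate and 429.4, 597.5 and 333.5 in naive joints, so only moderate replicate 2 reached the naive range.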

How the data were processed

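Biotin-labelled total RNA was hybridized to Affymetrix arrays, per the labels' protocols. The deposited intensity values are MAS5 signals, per the submitters' processing notes (version not given in the sources used here); their trimmed mean (2% at each end) was 150 on every array, so no scaling was added. Of 45101 probe sets, 34958 had 1 gene symbol in GEO's platform annotation, 932 several and 9211 were unnamed here; 34754 matched RefSeq. Each of 18194 genes took its probe set of highest mean, and 14310 genes above the array's 40th percentile on 3 or more of 15 arrays were tested. Of 4683 called genes with several probe sets, 260 had another called in the opposite direction. From the deposited intensities, log2(signal + 16) was computed and fitted with limma 3.58.1 (R 4.3.3) as 5 group means (10 residual degrees of freedom), with an intensity trend, Benjamini-Hochberg adjustment over all genes and two-sided tests. An exact permutation test of 3 against 3 arrays cannot give a p below 0.1. The steps were tested on simulated data.

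Members, lists (47, with 690 entries, 639 measured and 597 tested) and named genes were chosen with earlier results of these data known. The rule named the 15 highest and 15 lowest called genes without overlap, up to 3 members of lowest p per list, the 5 highest and lowest against mild and no swelling, the 3 lowest p against severe, and a panel, of which Tnfrsf11b lay below the filter and another gene is not reported here. Other list members, and the most variable genes, were named after their values were seen. Same-numbered moderate and no-swelling arrays deviated together (r = 0.15, 0.33 and 0.19), and moderate and naive arrays did not (-0.14, -0.17 and -0.08). Differently numbered moderate and no-swelling arrays were at -0.22 to 0.05. Against severe joints, differently numbered arrays could deviate together, with r = 0.39 for moderate replicate 3 and severe replicate 2. Moderate replicate 2 and severe replicate 2 were at -0.50. No pairing by number was established for moderate and naive arrays, and the labels give none. Whether moderate and no-swelling arrays were paired by number was left undecided. Alternatives were pseudocounts of 1 and 64, other filters (none, 60th percentile), quantile normalization, aligned medians, hybridization controls, means of probe sets, every probe set, no trend, only the groups compared, a replicate block, array weights and leaving out each array.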

Additional observations from a re-analysis of the deposited data

How the results depend on the processing

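The 7800 genes called between moderate and naive joints were 6980 to 7210 when 1 array was left out, 7481 with probe sets of a gene averaged, 7117 with the 60th percentile filter and 8650 with array weights; quantile normalization gave 4036 higher and 3753 lower. With every probe set by itself, 15528 were called against naive, 1 against severe, 1478 against mild and 14751 against no swelling. The count against mild was 230 with hybridization-control scaling, 28 with only the groups compared and 4561 with array weights, and 196 to 2009 when 1 array was left out. Leaving out 1 array gave 0 to 2 against severe and 6704 to 7270 against no swelling. With the replicate number as a block, 7553 were called against naive, 0 against severe, 686 against mild and 7396 against no swelling; same-numbered moderate and naive arrays did not deviate together, and of the named genes Acta1 lost its call (adjusted p = 0.058, limma). Over all named genes and alternatives, 3234 results kept their side of the threshold, 50 lost and 13 gained the call, 16 of the losses with hybridization-control scaling. The 3234 include changes of sign where neither result passed, such as Myh4 with that scaling (0.028). Tob2, -0.34 against naive, was 0.14 with that scaling; the cause was not tested. Dim genes such as Mmp13 in naive joints are limited by signal over background.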

Other observations

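Of 5512 tested probe sets that have no gene name here, 2079 (37.7%) were called between moderate and naive joints, below the 49.3% of all 31522 probe sets tested one by one.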
